A study of Mus musculus with 96 samples.

Results

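The 9 genes described here encode proteins that shorten the life of messenger RNA or hold back cell division: Zfp36, Zfp36l1, Zfp36l2, Zc3h12a, Btg1, Btg2, Btg3, Tob1 and Tob2. They were taken by gene symbol from a deposited table of 15895 genes, and all 9 were in it, each on 1 row. RNA was sequenced from primary embryonic fibroblasts of CF-1 mice, isolated at embryonic day 13. The cells were held in 0.5% fetal calf serum for 36 h, after which serum was raised to 20%. No genetic change separates the groups, and every library came from cells that had been starved. Libraries were made at 1 h before serum (-1 h), immediately before it (0 h) and at successive hours afterwards in 2 time courses. These are called series 1 (Cycle 1 in the labels, 63 libraries used, last hour 38) and series 2 (Cycle 2, 32 libraries, last hour 27). Each hour has 1 library in a series, so the replicates are the 2 series at the 29 hours after serum that they share, together with the 4 libraries from starved cells. The labels do not say whether the series were separate cell isolations, so the p-values measure only the spread between these libraries. The authors of the study aligned the 2 series by an offset found for each gene, whereas equal labelled hours are compared here.

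Zfp36 (tristetraprolin), Zfp36l1 and Zfp36l2 carry paired CCCH zinc fingers that bind AU-rich elements in the tails of short-lived transcripts and recruit the CCR4-NOT deadenylase. Zc3h12a (Regnase-1) is a CCCH zinc finger endonuclease that cuts stem-loops in inflammatory transcripts. Btg1, Btg2, Btg3, Tob1 and Tob2 form the BTG/TOB family, which binds the CAF1 subunit of CCR4-NOT and slows proliferation. Several of these genes are classical early genes of the serum response, and Zfp36 is known to act on its own transcript.

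The AU-rich heptamer TATTTAT, the core of the element that the ZFP36 proteins bind, was sought on the transcript strand in the longest annotated tail of each gene (NCBIM37, the mm9 assembly, GENCODE annotation). It was found in the tails of 4762 of 19915 protein-coding genes, or 23.9%. Zfp36, Zfp36l1 and Zfp36l2 each held 3 copies, in tails of 774, 1829 and 1822 bases. Among tails of like length (0.8 to 1.25 times), 1% held as many as Zfp36, 3.74% as many as Zfp36l1 and 3.77% as many as Zfp36l2. Btg3 held 2 copies, and 1.91% of tails of like length held as many. Btg2 and Tob2 held 1 each, which was common, as 39.5% and 42% of tails of like length held at least 1. The heptamer was not in the tails of Zc3h12a, Btg1 or Tob1. The sites of the 3 ZFP36 genes and of Btg2 are shown, 1 per gene, because the ZFP36 genes each hold 3 copies and Btg2 was the BTG gene with the largest early rise over -1 h. Capitals mark the heptamer, and each lies on the minus strand, at chr7:29161987-29162011, chr12:81209411-81209435, chr17:84584256-84584280 and chr1:135973828-135973852 in the order given.
Zfp36: tgggcccttTATTTATgacgacttt
Zfp36l1: atcaaaacgTATTTATtgccaaact
Zfp36l2: tatttaactTATTTATtatcttgtg
Btg2: atgaagagcTATTTATacatgtttt

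Promoters were read from the RefSeq table (GRCm38.p6), as the 250 bases before each gene's start, which held 8 of the 9 members. Both strands were searched for the CArG box of serum response factor, for TGACGTCA of the CREB and ATF factors, for TGANTCA of AP-1 and for GCGNGGGCG of the EGR factors. These were present in 1.47%, 1.55%, 6.75% and 4.7% of 32851 promoters. The promoters of Zfp36 and Btg2 are shown because these members rose most from -1 h to 0 h. In Zfp36 (chr7:28379229-28379478, minus strand) a CArG box lies at bases -58 to -49 and GCGNGGGCG at -105 to -97. In Btg2 (chr1:134079156-134079405, minus strand) TGACGTCA lies at -166 to -159 and GCGNGGGCG at -131 to -123. Capitals mark these matches, none of which overlap.
Zfp36 promoter: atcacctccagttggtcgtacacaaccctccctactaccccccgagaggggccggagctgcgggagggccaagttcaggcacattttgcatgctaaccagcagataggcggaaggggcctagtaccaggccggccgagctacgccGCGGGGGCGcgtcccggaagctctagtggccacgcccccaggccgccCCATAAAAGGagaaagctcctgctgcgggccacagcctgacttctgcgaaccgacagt
Btg2 promoter: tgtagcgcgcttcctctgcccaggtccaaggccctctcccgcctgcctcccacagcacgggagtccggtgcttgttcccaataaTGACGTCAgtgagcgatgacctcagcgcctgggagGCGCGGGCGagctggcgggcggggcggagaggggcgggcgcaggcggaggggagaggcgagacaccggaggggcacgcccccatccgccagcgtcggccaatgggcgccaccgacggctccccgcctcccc
Among the other promoters, Zfp36l1 held TGANTCA at -129 to -123, and none of these letters were found in Zc3h12a, Btg1, Btg3, Tob1 or Tob2. A match is a description of the letters and not of a bound site.

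The values are a normalized signal, the reads on a gene's exons scaled to 10000000 reads per library and not divided by length. Recovered depth was 5067432 to 14500278 reads (median 10832557). All 10 fibroblast markers listed had a mean of at least 100, and Col1a1 was 39360 or more in every library, while that mean was reached by 4 of 7 macrophage and blood genes measured, 3 of 4 neural genes, 2 of 4 muscle genes, 1 of 6 epithelial genes and 0 of 5 endothelial genes. Epcam, Krt5, Krt14, Pecam1, Cdh5, Myod1 and Myog were at 0 in at least 1 library. The highest of the other cell types' genes were Nes (506.5 to 4591), Lyz2 (307.1 to 4066), Des (305.9 to 2131) and Acta1 (40.4 to 671), and Krt18 reached 440.8. Their part in the results was not tested. In such bulk RNA, fewer cells of a kind and less RNA per cell cannot be told apart. The 0 h libraries, labelled as taken just before serum, stood apart from those at -1 h in both series. Fos was 914 and 466 at -1 h against 24883 and 15149 at 0 h in series 1 and 2, and of 9 early serum genes 8 were higher at 0 h. The library at 24.5 h of series 1, which enters no test, stood apart from its neighbours, with 1272 of 9112 well-measured genes (mean of at least 100) more than 2-fold from the 24 h library. The 27 h library of series 2 and those from 33 h in series 1 differed from earlier libraries in several members, as given below. Over all well-measured genes these steps were far smaller than that to the 24.5 h library, with 110 genes more than 2-fold apart from 26 to 27 h in series 2. That was still the largest count of any step in series 2, and the hourly steps from 23 to 26 h before it gave 7, 1 and 4. In series 1 there were 49 from 32 to 33 h, 124 from 33 to 34 h and 90 from 26 to 27 h. Changes against starved cells are therefore given against the -1 and 0 h libraries together, and also against the -1 h libraries alone. The second baseline was added after the 0 h values were seen.

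Across the shared hours 7 of the 9 genes varied (F test over all hours with a log2 change above 1 at some hour), where 46.3% of all genes did. The other two were Tob2 (adjusted p = 0.00012, with a change under the limit of 1) and Btg3 (adjusted p = 0.207). Adjusted p-values here and below are from limma on log2(signal + 1), with the Benjamini-Hochberg method over all 15895 genes, and log2 changes carry their standard error.

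Zfp36 gave a short pulse that was under way in the 0 h libraries. In starved cells it was 842 and 559 at -1 h in series 1 and 2 but 10157 and 6169 at 0 h. In series 1 it stood at 13411 by 1 h, and then at 2974 by 1.5 h and 2020 by 2 h. In series 2 the values at 0.5, 1, 1.5 and 2 h were 7257, 6713, 2498 and 1584. The signal thus dropped 4.51-fold and 2.69-fold between 1 h and 1.5 h, and both 0 h libraries lay far nearer to the 1 h libraries than to those at -1 h. At 19 to 23 h it was 357 to 431 (median 409) over 9 libraries of series 1 and 448 to 505 (median 467) over 5 of series 2, below all 4 starved libraries. Against -1 h alone it was higher at 0 h (log2 change 3.53 ± 0.31, adjusted p = 1.8e-09), at 1 to 1.5 h (2.89 ± 0.27, adjusted p = 5.4e-10) and at 2 to 3 h (1.15 ± 0.25, adjusted p = 0.00036). Against -1 and 0 h together the rise at 1 to 1.5 h did not pass (1.12 ± 0.48, adjusted p = 0.097), and the direction at 2 to 3 h was the opposite (-0.61 ± 0.44, adjusted p = 0.25). The rise at 1 to 1.5 h passed without the 0 h library of series 1 (1.83, adjusted p = 0.0012) or of series 2 (1.59, adjusted p = 0.014). The lower value at 2 to 3 h passed by edgeR (adjusted p = 0.0064) and without the -1 h library of series 1 (-1.10, adjusted p = 0.037) or of series 2 (-1.30, adjusted p = 0.0056). It was called lower at 4 to 6 h and 7 to 10 h against both starved hours but not against -1 h (0.17, adjusted p = 0.6, and -0.47, adjusted p = 0.126), and the first call was also lost without the 0 h library of series 1 (adjusted p = 0.054). Zfp36 was lower from 11 h onwards against both baselines, for example at 24 to 27 h by -2.60 ± 0.41 (adjusted p = 3e-06) against both starved hours and by -0.84 ± 0.25 (adjusted p = 0.0062) against -1 h. That stretch holds the low 27 h library of series 2 (149), and the change from -1 h was not tested without it. The fall below -1 h was larger in series 1, with means of 0.48 and 0.51 of its -1 h level at 19 to 23 h and 24 to 26 h. In series 2 these were 0.84 and 0.91.

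Zfp36l1 rose early and then fell below its starved level. It was 2354 and 1481 at -1 h, 3944 and 2252 at 0 h, and 5586 and 4008 at 1 h in series 1 and 2. By 19 to 23 h it was 395 to 532 (median 462) in series 1 and 440 to 661 (median 467) in series 2, and every one of these libraries was below every starved one. The log2 change was 0.91 ± 0.18 at 1 to 1.5 h (adjusted p = 0.00024) and -2.42 ± 0.16 at 24 to 27 h (adjusted p = 2.4e-14), or 0.187 of the starved level. With -1 h alone as baseline these were 1.25 ± 0.20 and -2.08 ± 0.18, with adjusted p-values of 1.7e-05 and 1.7e-10. The fall at 2 to 3 h (-0.42 ± 0.17, adjusted p = 0.033) was not called against -1 h alone (-0.08 ± 0.19, adjusted p = 0.76), after TMM scaling (-0.15, adjusted p = 0.49), by edgeR (-0.24, adjusted p = 0.23) or without the -1 h or 0 h library of series 1 (adjusted p = 0.059 and 0.37). It went on falling late, by -0.93 ± 0.13 from 7 to 10 h to 24 to 27 h (adjusted p = 5.4e-07). A gene model on the other strand, Gm17591, overlaps its exons, and counting ignored strand, so the reads of the pair cannot be told apart.

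Zfp36l2 was the steadiest of the ZFP36 genes. It was 1099 and 1151 at -1 h, 1617 and 1373 at 0 h, 1908 and 1777 at 1 h, and 1770 and 1826 at 1.5 h in series 1 and 2. The rise at 1 to 1.5 h was 0.49 ± 0.20 against both starved hours (adjusted p = 0.085) and 0.69 ± 0.24 against -1 h (adjusted p = 0.046). It was also called with series as a block (adjusted p = 0.046), after TMM scaling (0.65, adjusted p = 0.022), by edgeR (0.63, adjusted p = 0.02) and without the 0 h library of series 1 (0.60, adjusted p = 0.0498). It was lowest at 11 to 14 h, by -0.81 ± 0.17 (adjusted p = 0.00021) or, against -1 h, -0.61 ± 0.22 (adjusted p = 0.027). It then came back, by 0.50 ± 0.14 from 7 to 10 h to 24 to 27 h (adjusted p = 0.005), which set it apart in direction from Zfp36l1. At 4 to 6 h (-0.58 ± 0.18) and 19 to 23 h (-0.45 ± 0.17) the falls were called, with adjusted p-values of 0.0078 and 0.022, but not after TMM scaling (0.065 and 0.068) or against -1 h alone (0.18 and 0.37). The first was also not called by edgeR (adjusted p = 0.066), nor the second without the 0 h library of series 1 (adjusted p = 0.12) or series 2 (adjusted p = 0.058). The falls at 7 to 10 h and 15 to 18 h were not called against -1 h alone (adjusted p = 0.055 and 0.126).

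Zc3h12a gave the largest rise of the 9 against both starved hours. It was 135 and 103 at -1 h and 167 and 279 at 0 h in series 1 and 2. It was then 1320 and 1418 at 1 h and peaked at 1.5 h, at 1391 and 1710. All libraries from 1 to 3 h (492 or more) were above all 4 starved libraries. Its log2 change was 3.18 ± 0.23 at 1 to 1.5 h (9.05-fold, adjusted p = 1.7e-12), 2.37 ± 0.21 at 2 to 3 h (adjusted p = 2.1e-11) and 0.66 ± 0.21 at 4 to 6 h (adjusted p = 0.0079), the last not called without the -1 h library of series 2 (0.45, adjusted p = 0.075). In contrast to Zfp36 its rise came after the 0 h library, by 2.75 ± 0.25 from 0 h to 1 to 1.5 h (adjusted p = 2.4e-09), and the difference of 0 h from -1 h did not pass (0.86 ± 0.29, adjusted p = 0.62). From 7 h on none of the 5 stretches passed the test under either baseline.

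**Figure D1:**
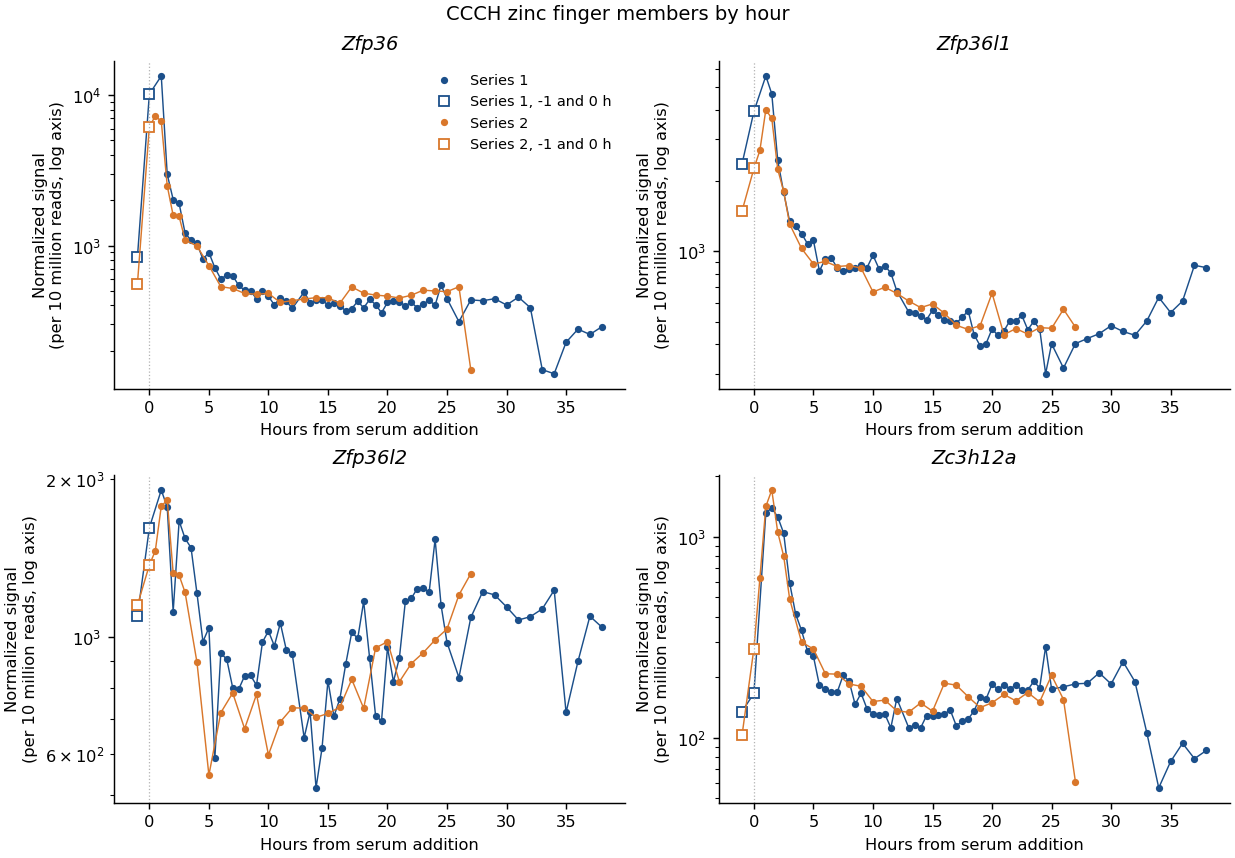
Signal of Zfp36, Zfp36l1, Zfp36l2 and Zc3h12a (per 10000000 reads, log axis) against hours from serum, 1 point per library, series 1 blue and series 2 orange, with open squares for the -1 and 0 h libraries. Zfp36 is at 10157 and 6169 already at 0 h, whereas Zc3h12a is at 167 and 279 there and peaks at 1391 and 1710 at 1.5 h.

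Btg2, a p53-induced member of the BTG/TOB family, followed Zfp36 in being high at 0 h. It was 604 and 654 at -1 h, 4067 and 3846 at 0 h, 5610 and 4900 at 1 h and 3739 and 3850 at 1.5 h in series 1 and 2. The 0 h libraries were thus 6.73 and 5.88 times those at -1 h (log2 change 2.65 ± 0.32, adjusted p = 8.7e-07), and 1 to 1.5 h against 0 h did not pass (0.17 ± 0.27, adjusted p = 0.83). At 19 to 23 h it was 480 to 580 (median 552) in series 1 and 700 to 763 (median 725) in series 2. Series 1 there lay below its -1 h library and series 2 above its own, and both lay far below 0 h. Against both starved hours it rose at 1 to 1.5 h (1.50 ± 0.39, adjusted p = 0.0042) and was lower from 7 h, reaching -1.54 ± 0.34 at 24 to 27 h (adjusted p = 0.00023). Against -1 h alone it was higher at 2 to 3 h by 1.99 ± 0.26 (adjusted p = 1.4e-07), and the direction turned at 4 to 6 h, where it was higher by 1.17 ± 0.26 (adjusted p = 0.00038), and none of the later stretches passed (0.50 ± 0.25 at 7 to 10 h, adjusted p = 0.1, and -0.22 ± 0.25 at 24 to 27 h, adjusted p = 0.5). Its call as lower at 7 to 10 h was also lost after TMM scaling (adjusted p = 0.087) and without the 0 h library of series 1 or series 2 (adjusted p = 0.37 and 0.34). Without either of these the calls at 11 to 14 h (0.085 and 0.071) and 15 to 18 h (0.062 and 0.0503) were lost too. The rise at 1 to 1.5 h was lost without the -1 h library of series 1 (1.04, adjusted p = 0.0503).

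Btg1 rose early and then fell below its starved level. It was 544 and 379 at -1 h, 1238 and 822 at 0 h, 1822 and 1186 at 1 h and 1824 and 1534 at 1.5 h in series 1 and 2. Every library from 1 to 2 h except that of series 2 at 1 h lay above all 4 starved libraries. Its log2 change was 1.21 ± 0.18 at 1 to 1.5 h (adjusted p = 4.5e-06) and 0.82 ± 0.17 at 2 to 3 h (adjusted p = 9.6e-05), and it passed in both steps, 1.15 ± 0.17 from -1 h to 0 h (adjusted p = 7.7e-05) and 0.64 ± 0.15 from 0 h to 1 to 1.5 h (adjusted p = 0.0031). At 4 to 6 h it was higher against -1 h alone (0.65 ± 0.14, adjusted p = 0.00034), as Btg2 was. It then declined to 261 to 331 (median 286) in series 1 and 284 to 392 (median 316) in series 2 at 19 to 23 h. These late values were below those of starved cells by -1.15 ± 0.15 (adjusted p = 1.4e-07), or by -0.58 ± 0.13 (adjusted p = 0.00075) against -1 h alone. At 7 to 10 h the call as lower (-0.39 ± 0.16, adjusted p = 0.036) turned direction against -1 h (0.18 ± 0.14, adjusted p = 0.29) and was lost after TMM scaling (adjusted p = 0.17) and without the 0 h library of series 1 (adjusted p = 0.55) or series 2 (adjusted p = 0.15). At 11 to 14 h the call as lower was lost against -1 h (-0.17 ± 0.14, adjusted p = 0.32).

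Tob1 was low by 2 h and lay below all 4 starved libraries from then to 33 h in series 1 and to 26 h in series 2, after which it was 322 to 400 from 34 h and 341 at 27 h. It was 292 and 261 at -1 h, 457 and 309 at 0 h, and 447 and 360 at 1 h, then 279 and 277 at 1.5 h and 120 and 227 at 2 h in series 1 and 2. All libraries from 2 to 3 h were below all 4 starved libraries, with series 1 the lower of the pair (120 to 135 against 198 to 227). Its log2 change was 0.05 ± 0.20 at 1 to 1.5 h (adjusted p = 0.91), -0.98 ± 0.18 at 2 to 3 h (adjusted p = 3.1e-05) and -0.97 ± 0.17 at 19 to 23 h (adjusted p = 1.2e-05). Against -1 h alone it was lower in each stretch from 2 to 3 h (-0.76 ± 0.23, adjusted p = 0.007) to 19 to 23 h (-0.74 ± 0.22, adjusted p = 0.0058), and at 24 to 27 h it was -0.50 ± 0.22 (adjusted p = 0.062).

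Tob2, its close relative, moved the other way. It was 307 and 407 at -1 h, 346 and 318 at 0 h, and 299 and 295 at 1 h in series 1 and 2. It was then 518 and 515 at 2 h, 626 and 577 at 2.5 h and 575 and 581 at 3 h, so these libraries lay above all 4 starved ones. The rise at 2 to 3 h was small, 0.72 ± 0.09 (1.65-fold, adjusted p = 4.2e-08), and it passed against -1 h alone as well (0.67 ± 0.12, adjusted p = 1.7e-05). Over the -1 h library of the same series it was 1.87-fold in series 1 and 1.37-fold in series 2. Tob2 was called higher in all 7 stretches from 2 to 3 h onwards under both baselines, at 1.25 to 1.35 times the starved level after 3 h. The weakest of these calls was that at 15 to 18 h against -1 h (0.28 ± 0.11, adjusted p = 0.0497). The series differed in size, the stretch means after 3 h being 1.33 to 1.59 times the -1 h library in series 1. In series 2 they were only 1.04 to 1.18 times its own.

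Btg3 could not be followed. Its signal was 0 to 5.6 in all 95 libraries, which is 0 to 6 reads, and it was at 0 in 21 of them. In 88 libraries it had at most 3 reads, the limit that a count of 0 allows, which corresponds to a signal of 2.07 to 5.92 depending on the library. Of the 1169 windows of 50 bases in its exons, the length of the reads, 92.1% occurred at more than 1 place in the genome, against 0% for Zfp36, Btg2, Tob1 and Tob2, 1.35% for Zc3h12a, 15.1% for Btg1, 17.9% for Zfp36l1 and 21.6% for Zfp36l2. The part of these repeats in the low counts was not tested. It was called lower at 15 to 18 h (adjusted p = 0.048), a call lost against -1 h alone (adjusted p = 0.19) and after TMM scaling (adjusted p = 0.066), among others.

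**Figure D2:**
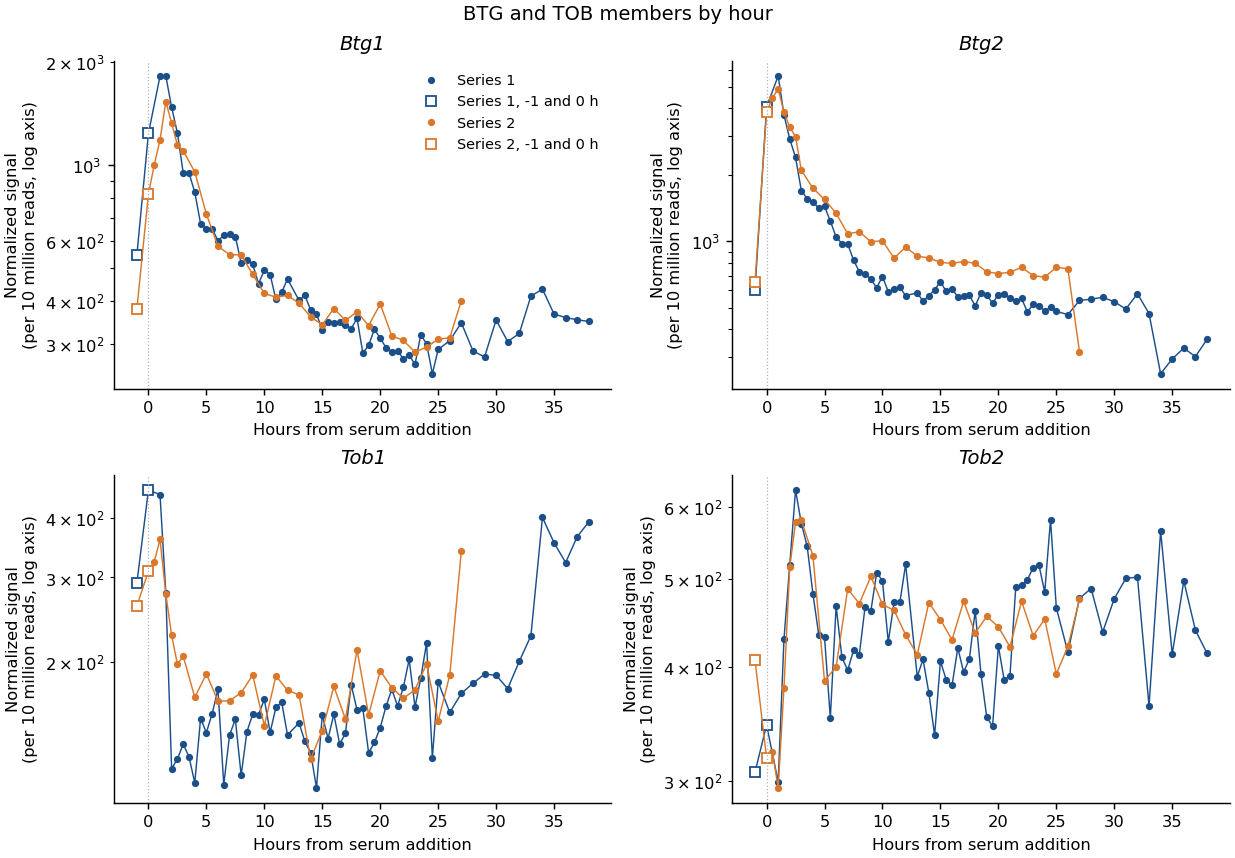
Signal of Btg1, Btg2, Tob1 and Tob2 (per 10000000 reads, log axis) against hours from serum, 1 point per library, series 1 blue and series 2 orange, with open squares for the -1 and 0 h libraries. Btg1 and Btg2 peak at 1 to 1.5 h, Tob1 is down to 120 and 227 at 2 h, and Tob2 peaks at 626 and 581 at 2.5 and 3 h.

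Against both starved hours the members called were mostly higher at first and mostly lower later. At 1 to 1.5 h 4 of 9 members were higher (Zc3h12a, Btg2, Btg1 and Zfp36l1) and 0 lower by limma (0 at an unadjusted p under 0.05 and 0 by edgeR), where 5.62% of all genes were higher and 15.3% lower. Against -1 h alone 6 were higher, with Zfp36 and Zfp36l2 added, and 0 lower by the same counts, where the shares were 4.73% and 11.9%. From 0 h to 1 to 1.5 h Zc3h12a and Btg1 rose, where 3.55% of genes rose and 8.22% fell. From -1 h to 0 h 3 rose (Zfp36, Btg2 and Btg1) and 0 fell (0 at an unadjusted p under 0.05 and 0 by edgeR), where 0.346% of genes rose and 0.0566% fell, a total of 64 genes. The members' median log2 change at 1 to 1.5 h was 0.91 against -0.148 for all genes, or 1.247 against -0.176 with -1 h alone as baseline.

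At 2 to 3 h 3 members were higher (Zc3h12a, Btg1 and Tob2) and 2 lower (Tob1 and Zfp36l1), where 14.0% of genes were higher and 38.7% lower. Against -1 h alone 5 were higher, with Zfp36 and Btg2 added, and Tob1 was the 1 lower, where the shares were 11.3% and 32.9%. At 4 to 6 h Tob2 and Zc3h12a were higher and 4 were lower (Zfp36, Zfp36l1, Zfp36l2 and Tob1), against 18.4% and 36.6% of genes. Both counts lay near these shares. Against -1 h alone the balance turned, with 4 higher (Tob2, Zc3h12a, Btg1 and Btg2) and 2 lower (Zfp36l1 and Tob1), against 14.3% and 30.6%. At 7 to 10 h and at 11 to 14 h Tob2 was higher and the same 6 genes were lower (Zfp36, Zfp36l1, Zfp36l2, Btg1, Btg2 and Tob1), where 20.4% and then 22.2% of genes were higher, and 32.8% and then 31.1% lower. At 15 to 18 h Btg3 joined them to make 7, against 22.4% higher and 31.3% lower. The call of Btg3 rested on 0 to 6 reads per library and was lost with a pseudocount of 10 (adjusted p = 0.18), among other settings. At 19 to 23 h 6 were lower, against 24.2% and 34.4%, and at 24 to 27 h 5 were lower, Zfp36l2 having dropped out, against 22.0% and 34.9%. With -1 h alone as baseline fewer were lower from 7 h on, 2 at 7 to 10 h, 4 at 11 to 14 h, at 15 to 18 h and at 19 to 23 h, and 3 at 24 to 27 h, with Tob2 as the 1 higher gene in each. Higher genes then made up 15.3%, 16.2%, 16.2%, 17.5% and 16.0% of all genes in these 5 stretches and lower genes 26.5%, 24.7%, 25.0%, 27.7% and 28.7%. The 2 of 9 lower at 7 to 10 h and the 3 of 9 lower at 24 to 27 h thus lay near the share of all genes. So did the 1 of 9 higher in each stretch.

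**Figure D3:**
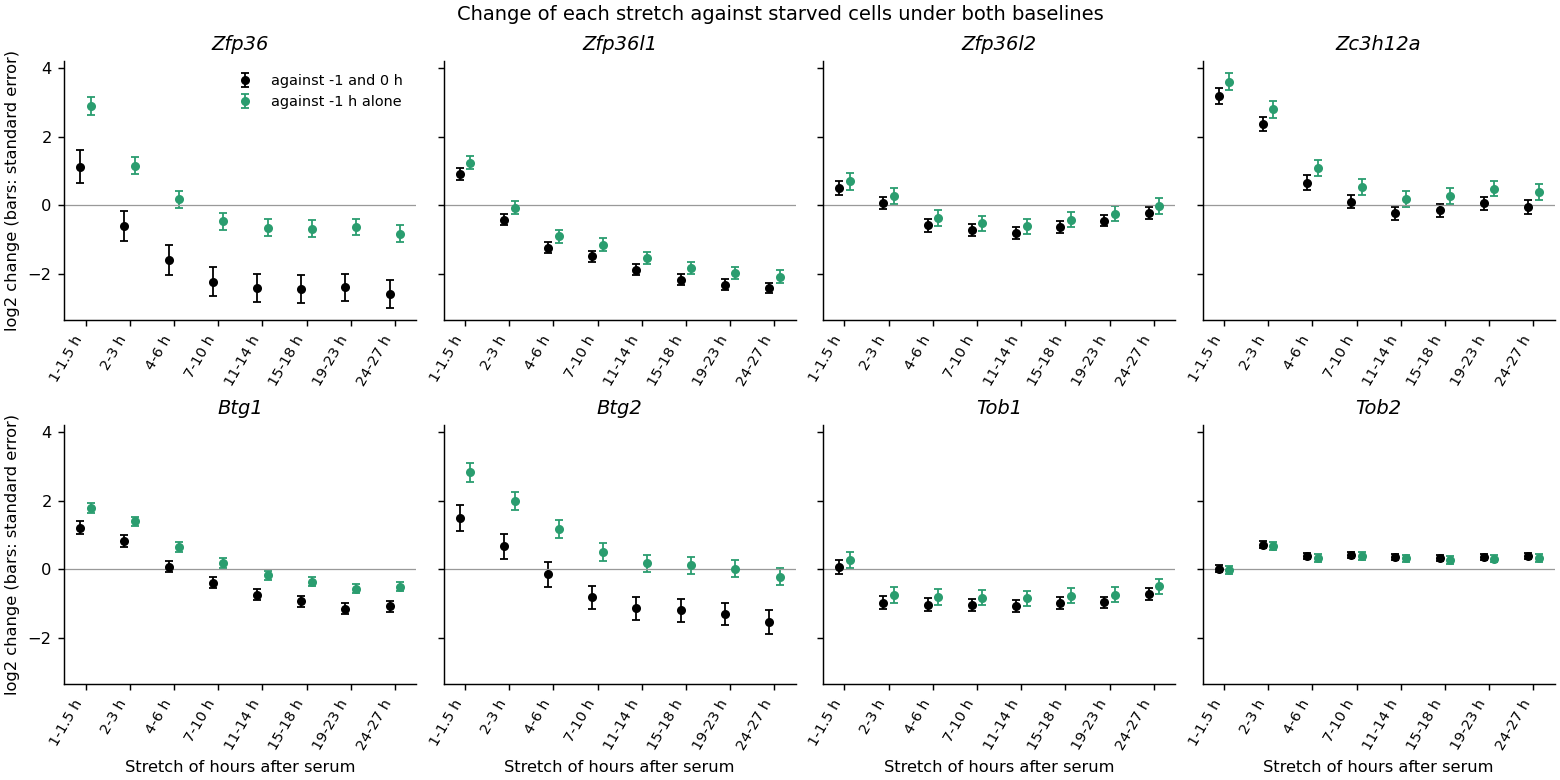
Log2 change of 8 members in 8 stretches of hours, with standard errors, against the -1 and 0 h libraries together (black) and against the -1 h libraries alone (green). Zfp36 and Btg2 separate most between the baselines (by up to 1.76 and 1.33 on the log2 scale), and Tob2 least (0.05).

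The scaling shifted these shares. After TMM scaling the median change of all genes moved from -0.148 to 0.005 at 1 to 1.5 h, from -0.319 to -0.067 at 2 to 3 h, from -0.255 to -0.086 at 4 to 6 h and from -0.173 to -0.054 at 7 to 10 h. The share of called genes that were higher moved with it from 26.8% to 46.5%, from 26.6% to 46.1%, from 33.4% to 46.8% and from 38.4% to 48.9%. It moved from 35.4% to 48.1% for 2 to 3 h against 1 to 1.5 h, and from 64.9% to 52% for 4 to 6 h against 2 to 3 h. No called change of a member turned direction under TMM scaling.

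Differences between successive stretches do not use the values of the starved libraries, whose spread enters only the error. From 1 to 1.5 h to 2 to 3 h Zfp36 fell by 1.74 ± 0.44 on the log2 scale (adjusted p = 0.0022), Zfp36l1 fell by 1.33 ± 0.17 (adjusted p = 1.7e-07), Tob1 fell by 1.03 ± 0.18 (adjusted p = 4.4e-05) and Zc3h12a fell by 0.81 ± 0.21 (adjusted p = 0.0029). Tob2 was the 1 member that rose (0.70 ± 0.09, adjusted p = 3.6e-07), where 11.2% of all genes rose and 20.5% fell. From there to 4 to 6 h 6 members fell, led by Zc3h12a (-1.71 ± 0.19, adjusted p = 1.6e-08), and 0 rose (0 at an unadjusted p under 0.05 and 0 by edgeR), while among all genes 11.2% fell and 20.7% rose. From 7 to 10 h to 24 to 27 h Zfp36l1, Btg1 (-0.69 ± 0.13, adjusted p = 6.4e-05) and Btg2 (-0.72 ± 0.27, adjusted p = 0.036) fell and Zfp36l2 rose, where 19.5% of genes rose and 20.0% fell. The fall of Btg2 was not called without the 27 h libraries (-0.59 ± 0.30, adjusted p = 0.12).

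In series 1 the libraries at 33 to 38 h differed from those at 28 to 32 h, and they have no counterpart in series 2, so the values are given with no test. Zfp36 was 386 to 454 (median 429) at 28 to 32 h and 140 to 288 (median 242) at 33 to 38 h. Btg2 was 494 to 580 (median 548) and then 252 to 471 (median 315), and Zc3h12a was 186 to 240 (median 191) and then 56.5 to 106 (median 82.8). In these 3 genes the 6 later libraries were all below the 5 earlier ones, as in 6.04% of all genes. Tob1 went the other way, from 176 to 200 (median 187) to 227 to 400 (median 360), and Zfp36l1 from 424 to 480 (median 444) to 504 to 870 (median 623). In both the later libraries were all above the earlier ones, as in 8.69% of all genes. The groups overlapped for Zfp36l2, Btg1, Btg3 and Tob2.

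The last library of series 2, at 27 h, differed from 24 to 26 h in the same direction in 4 of the genes set apart above. Zfp36 was 149 there after 494 to 532 at 24 to 26 h, Btg2 was 316 after 689 to 764, and Zc3h12a was 60.7 after 151 to 205. Tob1 was 341 after 150 to 198. Zfp36l2 (1322 after 989 to 1204), Btg1 (401 after 293 to 312) and Tob2 (475 after 393 to 452) were also above their ranges. Zfp36l1, the remaining gene set apart above, did not follow, being at 473.7 within its range of 468.3 to 564.5. Each range holds only 3 libraries, and the share of all genes outside such a range was not counted. At the same hour in series 1 Zfp36, Btg2, Zc3h12a and Tob1 were at 435, 540, 186 and 172. Zfp36 and Tob1 were there within the range of their own series at 24 to 26 h and Btg2 was above it (466 to 504). Zc3h12a was within it only through the 24.5 h library, the others being at 175 to 180. Of the 9 early serum genes, 8 had a lower median at 33 to 38 h than at 28 to 32 h in series 1 (Egr1 227 after 834), in 6 of them with all later libraries below the earlier ones, and Atf3 went the other way (50.5 after 46.3). In the 27 h library of series 2, 8 of the 9 were below their range at 24 to 26 h (Egr1 63.6 after 684 to 1598) and Atf3 was above it (69.5 after 44.4 to 56.7). Their part in the members' change was not tested.

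**Figure D4:**
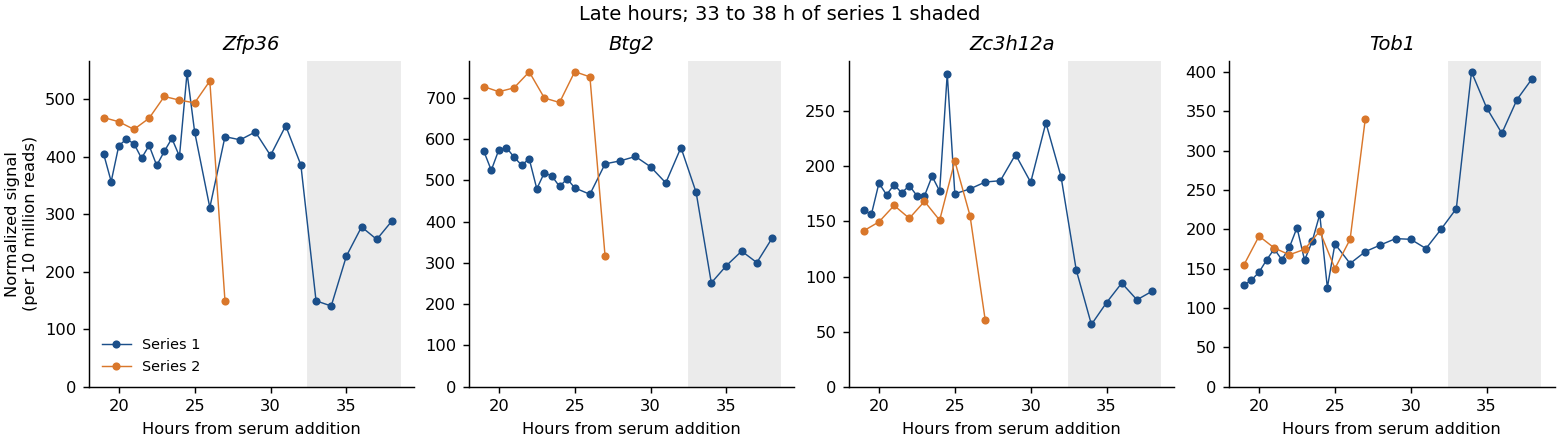
Signal of Zfp36, Btg2, Zc3h12a and Tob1 (per 10000000 reads, linear axis from 0) from 19 h onwards, 1 point per library, series 1 blue and series 2 orange, with 33 to 38 h shaded. The 27 h library of series 2 (149, 316, 60.7 and 341) lies among or near the shaded series 1 libraries and away from the 27 h library of series 1 (435, 540, 186 and 172).

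Levels were compared between genes only per kilobase of annotated exon, with the exon union of the GENCODE annotation as length. At -1 h the order, as medians of 2 libraries, was Zfp36l1 (643 per kilobase), Zfp36 (391), Zfp36l2 (319), Btg2 (229), Tob1 (121), Btg1 (92.1), Tob2 (89.4), Zc3h12a (41.3) and Btg3 (1.38). The ranges of the neighbours Zfp36 and Zfp36l2 overlapped, as did those of Btg1 and Tob2, while that of Zfp36l1 (497 to 789) lay above Zfp36 (312 to 470). At 1 h Zfp36 led (5615 per kilobase), ahead of Btg2 (1916) and Zfp36l1 (1608), and Zfp36l2 (522) was followed by Zc3h12a (475). The ranges of Btg2 (1787 to 2045) and Zfp36l1 (1343 to 1872) overlapped at that hour. At 19 to 23 h, over 14 libraries, the ZFP36 genes had changed places, with Zfp36l2 first (median 268, range 196 to 352), Zfp36 next (235) and Btg2 (209) before Zfp36l1 (155), their ranges overlapping. The gene loci lie on NCBIM37 at chr7:29161803-29164274 (Zfp36), chr12:81208747-81214000 (Zfp36l1), chr17:84583271-84587287 (Zfp36l2), chr4:124795667-124805084 (Zc3h12a), chr10:96079635-96085447 (Btg1), chr1:135971747-135975697 (Btg2), chr16:78360105-78377437 (Btg3), chr11:94072768-94076809 (Tob1) and chr15:81678700-81688756 (Tob2).

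The courses of the members were compared by Pearson's r over the 31 starved and shared hours of each series. By the lower of the 2 values the pairs most alike were Zfp36 and Btg2 (0.95 in series 1 and 0.934 in series 2), Btg1 and Btg2 (0.958 and 0.907), Zfp36l1 and Btg2 (0.907 and 0.897) and Zfp36l1 and Btg1 (0.937 and 0.897). Zc3h12a and Btg2 gave 0.822 and 0.917, and Zfp36 and Btg1 0.885 and 0.767. Tob1 and Tob2 gave -0.523 and -0.434. These values describe time courses that share libraries, hours and depth. Among genes with a mean of at least 100, the courses most like a member by the lower of its 2 correlations were Ccnl1, Egr1 and Nfkbiz for Zfp36 (0.97 for Ccnl1), Hif1a, Bahcc1 and Rlf for Zfp36l2 (0.872 for Hif1a) and Itpkc, Trib1 and Mcl1 for Zc3h12a (0.94 for Itpkc). They were Gem, Ccl2 and Tnfaip6 for Btg1 (0.962 for Gem), Junb, Mcl1 and Fosb for Btg2 (0.963 for Junb), Per1, Ctdsp2 and Gas1 for Tob1 (0.818 for Per1) and Utp15, Plekhg3 and Zfp828 for Tob2 (0.786 for Utp15). For Btg3 the closest, Cox7a2l, Maf1 and Ddt, reached only 0.414.

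The decay machinery that these proteins recruit was followed through gene lists, whose counts are to be read against all genes, of which 5.62% were higher and 15.3% lower at 1 to 1.5 h and 22.0% higher and 34.9% lower at 24 to 27 h. At 1 to 1.5 h 1 of 12 CCR4-NOT genes was higher and 4 lower, 0 of 19 decapping and 5′ decay genes were higher and 4 lower, and 0 of 16 exosome genes were called in either direction by limma. At an unadjusted p under 0.05 the 0 higher decapping genes were again 0 and 6 exosome genes were lower, and edgeR called 0 of both. By 24 to 27 h 11 of 16 exosome genes were higher and 1 lower (median log2 change 0.518, against -0.173 for all genes), or 8 higher and 0 lower against -1 h. Exosc6, a core subunit of the exosome, rose most, by 1.63 ± 0.21 at 19 to 23 h (adjusted p = 5.9e-08), ahead of Exosc2 (1.06 ± 0.21 at 15 to 18 h, adjusted p = 7.3e-05). Of the 12 CCR4-NOT genes 4 were higher and 0 lower at 24 to 27 h (2 lower at an unadjusted p under 0.05, 0 by edgeR), led by the complex partner Tnks1bp1 (0.81 ± 0.10, adjusted p = 3e-08). With -1 h alone as baseline 2 were higher and 1 lower, where 16.0% of all genes were higher and 28.7% lower. The largest falls in that list were those of Cnot6 (-0.79 ± 0.28 at 19 to 23 h, adjusted p = 0.014) and Cnot6l (-0.79 ± 0.25 at 11 to 14 h, adjusted p = 0.009), paralogous deadenylase subunits, and neither passed against -1 h alone (adjusted p = 0.068 and 0.057).

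Among other deadenylases and poly(A)-binding genes 1 of 11 was higher at 1 to 1.5 h and 1 lower, and 4 were higher and 5 lower at 24 to 27 h. The one that rose early was Ccrn4l (nocturnin), by 3.49 ± 0.23 (adjusted p = 6.4e-13). Pan2, the catalytic subunit of another deadenylase, fell by 0.72 ± 0.11 at 24 to 27 h (adjusted p = 1.4e-06). Of the 19 decapping and 5′ decay genes 6 were higher and 5 lower at 24 to 27 h, not far from the shares of all genes (22.0% and 34.9%). Pnrc1 fell furthest, by -2.81 ± 0.27 at 19 to 23 h (adjusted p = 2.5e-10), and Pnrc2, a decapping coactivator, fell by 1.60 ± 0.14 at 2 to 3 h (adjusted p = 3e-11), while Lsm2, of the ring that promotes decapping, rose by 1.26 ± 0.22 at 19 to 23 h (adjusted p = 1.2e-05). Of 25 other RNA-binding regulators of decay 0 were higher (2 at an unadjusted p under 0.05 and 2 by edgeR) and 4 lower at 1 to 1.5 h, and 7 were higher and 6 lower at 24 to 27 h, again not far from those shares. They ran from Nanos1 (1.61 ± 0.26 at 15 to 18 h, adjusted p = 5.5e-06) to Tnrc6b (-2.14 ± 0.22 at 2 to 3 h, adjusted p = 8.8e-10). Zfp36l3 and Btg4, the remaining members of the families, were not among the genes measured.

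Kinases, 14-3-3 proteins and a phosphatase subunit listed as acting on Zfp36 were mostly higher late, 3 of 12 at 1 to 1.5 h and 10 of 12 at 24 to 27 h. Against -1 h the late count was 9 of 12. In these 3 comparisons 5.62%, 22.0% and 16.0% of all genes were higher. Mapkapk2 and Mapkapk3, which phosphorylate Zfp36 downstream of p38, rose by 0.83 ± 0.08 (adjusted p = 1.8e-10) and 1.36 ± 0.11 (adjusted p = 1.4e-12) at 2 to 3 h, where Mapk14, p38α itself, fell by 1.02 ± 0.10 (adjusted p = 1.3e-10). Transcripts known as targets of Zfp36 or Zc3h12a were higher early, 23 of 30 higher and 0 lower at 1 to 1.5 h by limma (0 lower at an unadjusted p under 0.05, 1 by edgeR) with a median log2 change of 2.059, 13 higher and 4 lower at 4 to 6 h, and 4 higher and 13 lower at 24 to 27 h. The shares of all genes were 5.62% higher and 15.3% lower, 18.4% and 36.6%, and 22.0% and 34.9% in these stretches. With -1 h alone as baseline the last count was 8 higher and 5 lower, against 16.0% and 28.7%. Il11 rose by 6.80 ± 0.35 at 7 to 10 h (adjusted p = 7.1e-17) and Csf2 by 5.61 ± 0.34 at 2 to 3 h (adjusted p = 3.8e-15), while Cxcl10 fell by 4.70 ± 0.56 at 15 to 18 h (adjusted p = 2.1e-08) and Fos fell by 5.36 ± 0.62 at 24 to 27 h (adjusted p = 9.2e-09). Against -1 h the change of Fos there was -2.91, since Fos, like 10 of these 30 transcripts, was higher at 0 h than at -1 h. The early serum genes listed for timing were higher in 6 of 9 cases at 1 to 1.5 h, and 1 was higher and 6 lower at 24 to 27 h. Against -1 h 8 were higher at 1 to 1.5 h, and 3 were higher and 3 lower at 24 to 27 h.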

How the data were processed

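RNA of mouse embryonic fibroblasts was sequenced as single 50-base reads from a stranded poly(A) library. The authors aligned reads to mm9 with STAR, counted reads on exons of either strand with HOMER and deposited a normalized signal per 10000000 reads, with no division by length. CASAVA, STAR and HOMER are named in the submitters' processing notes, and their versions are not given in the sources used here. The table has 96 columns, and 1 of them, whose name fits no library, was not used. Values of low genes were whole multiples of the worth of 1 read (0.69 to 1.973) in 94.23% to 96.17% of cases, within a tolerance of 0.1. Intervals and floors cover counting error only.

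The main test was limma 3.58.1 in R 4.3.3 on log2(signal + 1), over the 29 shared hours and the 4 starved libraries as 1 level, with means over 8 stretches of hours and no filter. A call needs a Benjamini-Hochberg adjusted p under 0.05 over all 15895 genes. Fold changes on this scale understate low genes. edgeR 4.0.16 on the recovered whole reads was an alternative, beside a pseudocount of 10, a mean of at least 10, TMM scaling, series as a block, trend and robust options, a log2 limit of 1, and leaving out libraries. Added after the data were seen were the -1 h baseline, the contrasts of 0 h, the tests without 27 h and the comparison of 33 to 38 h. Both tools were tested on simulated data. Python 3.11.15, numpy 2.4.6, pandas 2.3.3 and matplotlib 3.10.9 made the descriptions and figures.

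Named are the 9 members, the 3 genes with the most similar course for each (not reported here for Zfp36l1), and from each list up to 2 of the largest called rises and 2 of the largest called falls over the stretches, of which most are given. Early and marker genes are named as checks. The members and lists were chosen with earlier results of these data known.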

Additional observations from a re-analysis of the deposited data

Results flagged for a closer look

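At 27 h the series went opposite ways in 2 members, with 1 library each, and the difference was not tested. Zc3h12a was 186 in series 1, above both of its starved libraries, and 60.7 in series 2, below both of its own, a ratio of 3.06. Tob1 was 172 in series 1, below both starved libraries, and 341 in series 2, above both, a ratio of 0.504. The change of the 27 h library of series 2 from 24 to 26 h and that of 33 to 38 h from 28 to 32 h in series 1 had a Pearson's r of 0.446 across 9112 genes with a mean of at least 100, and the same 27 h change against that of series 1 at 27 h gave -0.0598. Genes are not independent replicates, and these values are a description. In none of the members was 1 of the 4 starved libraries set apart by Dixon's test at the 95% level. That test looks for 1 value apart, so it cannot flag 2 low -1 h libraries beside 2 high 0 h libraries, as in Zfp36 and Btg2.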

How the results depend on the processing

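With -1 h alone as baseline, the log2 change reversed for Zfp36 at 2 to 3 h (1.15) and 4 to 6 h (0.17), for Btg1 at 7 to 10 h (0.18) and for Btg2 at 4 to 6 h (1.17), 7 to 10 h (0.50), 11 to 14 h (0.18), 15 to 18 h (0.12) and 19 to 23 h (0.013). The members called then numbered 3 in place of 7 at 7 to 10 h and 5 in place of 8 at 15 to 18 h. When a log2 change above 1 was also asked for, 1 member was called at 2 to 3 h, 3 at 4 to 6 h and at 7 to 10 h, 4 at 11 to 14 h, at 15 to 18 h and at 19 to 23 h, 3 for 2 to 3 h against 1 to 1.5 h, 1 for 4 to 6 h against 2 to 3 h and 0 for 24 to 27 h against 7 to 10 h. Leaving out 1 starved library or either whole series gave 0 to 7 members in the F test, 0 to 6 at 1 to 1.5 h, 0 to 6 at 2 to 3 h, 0 to 6 at 4 to 6 h, 0 to 7 at 7 to 10 h and at 11 to 14 h, 0 to 8 at 15 to 18 h, 0 to 7 at 19 to 23 h, 0 to 6 at 24 to 27 h, 0 to 7 for 2 to 3 h against 1 to 1.5 h and for 4 to 6 h against 2 to 3 h, and 0 to 4 for 24 to 27 h against 7 to 10 h. The lowest counts came from leaving out a whole series, which leaves 1 residual degree of freedom, from the starved pair.

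Differences between the series at the same hour were partly shared across hours, with a median correlation of 0.475 over 406 pairs of hours. It was 0.1 or less in 38, and by the rule used the main test did not pair the libraries by series. The main test thus leaves such a shared difference in its error. Over all genes the block fit called 4254 in place of 3327 at 1 to 1.5 h. With series as a replicate block 5 members in place of 4 were called at 1 to 1.5 h, 7 in place of 5 for 2 to 3 h against 1 to 1.5 h, 7 in place of 6 for 4 to 6 h against 2 to 3 h and 5 in place of 4 for 24 to 27 h against 7 to 10 h. Other pseudocounts, filters, scaling and edgeR left each count of members within 1.5 times. Of the 27 genes named as most alike by Pearson's r, 5 were also among the first 3 by Spearman's rho, so those names depend on the measure. Low read counts limit Btg3 alone, the other members having at least 39 reads in every library. The parts of depth and of repeated sequence in the low counts of Btg3 were not tested.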
